A study of Homo sapiens with 8 samples.

Results

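The genes described here are 10 transcriptional outputs of RAS-ERK signalling that feed back on it: the MAP kinase phosphatases DUSP4, DUSP5 and DUSP6, the inhibitors SPRY2, SPRY4, SPRED1 and SPRED2, the ETS factors ETV4 and ETV5, and the early response gene IER3. They were chosen by symbol, and all 10 were present among the 14535 genes kept from the expression table. All 10 were also among the 13473 genes tested, which had a level of at least 1 CPM in at least 2 libraries (CPM, reads of a gene scaled to a common library size). The 8 mRNA libraries came from Calu-6, a line of human non-small cell lung cancer (NSCLC) with the genotype recorded as WT. The 4 groups of 2 libraries were KI696 at 1 µM for 24 h, DMSO vehicle for 24 h, KI696 at 1 µM for 48 h and DMSO vehicle for 48 h. KI696 is an inhibitor of the contact between KEAP1 and NRF2, the transcription factor that KEAP1 holds down. Within each group the libraries are named A and B, in the order of their columns. Whether A and B stem from separate cultures is not recorded, so p-values measure the spread between these libraries, which may be technical.

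The ERK cascade carries signals from growth factor receptors through RAS, RAF and MEK to ERK, which enters the nucleus and raises the transcription of its own inhibitors. Dual-specificity phosphatases remove the activating phosphates from ERK, and Sprouty and SPRED proteins act further up, between receptor, RAS and RAF. Many lung adenocarcinomas carry RAS pathway mutations, and levels of DUSP6, SPRY4 and ETV4 and ETV5 mRNA are widely read as a record of pathway output in such cells.

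In these cells the feedback genes did not move as a block. DUSP6 and IER3 fell to 0.475 to 0.540 times their DMSO level with KI696, SPRY4, SPRY2 and SPRED2 fell by less, and these 5 genes were lower at both times. DUSP4 was higher at 24 h and ETV4 was higher at 48 h. SPRED1, ETV5 and DUSP5 passed the test at neither time. At 24 h, 5 of the 10 genes were lower at an adjusted p under 0.05, against 30.3% of all tested genes, and 1 was higher, against 17.7%. At 48 h, 5 were lower, against 25.9% of all tested genes, and 1 was higher, against 21.9%. KI696 changed 48.0% of all tested genes at 24 h and 47.8% at 48 h in one direction or the other. The median log2 change of the 10 genes was -0.24 at 24 h and -0.29 at 48 h, beside -0.12 and -0.08 over all tested genes. In bulk RNA, fewer cells of a kind and less RNA per cell cannot be told apart.

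Promoter sequence was read for some of the genes, and its part in their changes was not tested. RefSeq promoter windows on GRCh38.p14 were at hand for 5 of the 10 genes, DUSP6, SPRY2, SPRY4, SPRED1 and SPRED2. The stretches shown lie wholly upstream of annotated exons and belong to SPRY2, which holds 2 copies of the ETS core CGGAA, and to SPRED2, which holds none. They read 5′ to 3′ on the strand of the gene, at chr13:80341127-80341376, minus strand, for SPRY2 and at chr2:65432638-65432849, minus strand, for SPRED2. Capitals mark the ETS core on either strand, the short sequence bound by ETS factors such as ETV4 and ETV5.
SPRY2: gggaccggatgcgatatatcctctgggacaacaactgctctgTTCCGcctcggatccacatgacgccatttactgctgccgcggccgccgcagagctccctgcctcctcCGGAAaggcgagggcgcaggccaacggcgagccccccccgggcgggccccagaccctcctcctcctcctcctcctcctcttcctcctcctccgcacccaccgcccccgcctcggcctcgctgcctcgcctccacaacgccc
SPRED2: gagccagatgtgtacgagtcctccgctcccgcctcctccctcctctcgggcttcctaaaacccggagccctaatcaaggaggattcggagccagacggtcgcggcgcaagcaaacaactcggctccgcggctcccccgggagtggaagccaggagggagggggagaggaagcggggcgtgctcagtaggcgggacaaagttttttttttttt

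The copies in SPRY2 begin 208 and 141 bases before the RefSeq gene start. Over the 250 bases before each start, read on both strands, CGGAA was in 2 of the 5 windows, those of SPRY2 and DUSP6, and in 30.7% of 27305 RefSeq promoters. Annotated exons cover all 250 bases of the DUSP6 and SPRED1 windows, 170 of SPRY4, 38 of SPRED2 and 0 of SPRY2. The DUSP6 matches therefore lie within annotated exons. The longer ETS sequence CCGGAAG, the Capicua sequences TGAATGAA and TGAATGGA, the AP-1 site TGANTCA, the CRE TGACGTCA and the CArG box were in 0 of the 5. Of all promoters, 8.82% held CCGGAAG, 1.42% TGAATGAA, 0.875% TGAATGGA, 6.6% the AP-1 site, 1.77% the CRE and 1.14% the CArG box. With shares this low, 0 of 5 says little about these genes. The antioxidant response element core TGACNNNGC, the kind of sequence that NRF2 binds, was in 1 of the 5, SPRY4, and in 11% of all promoters. CCGGAAG contains CGGAA, so its matches are among those of the shorter motif. A match of letters is not a binding site.

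Known targets of NRF2 served as a check of the labels. NQO1, a quinone reductase switched on by NRF2, had 1824 and 1852 CPM in KI696 libraries at 24 h, against 521 and 486 CPM in DMSO libraries, and 1939 and 2273 CPM in KI696 libraries at 48 h, against 320 and 244 CPM in DMSO libraries. All 10 NRF2 targets on the list of checks were higher at both times. The libraries held 6974235 to 14170211 reads each, and the 10 feedback genes had between 147 reads (DUSP5) and 7037 reads (DUSP4) in a library. Epithelial and lung lineage markers differed between libraries, and at 24 h they moved with the groups. The summed level of 20 epithelial markers was 975 and 1047 CPM in KI696 libraries at 24 h, against 2953 and 2356 CPM in DMSO libraries, and 1605 and 1108 CPM in KI696 libraries at 48 h, against 2189 and 1996 CPM in DMSO libraries. Of these 20, 19 (95%) fell at 24 h, beside 30.3% of all tested genes. At 48 h 5 (25%) fell, near the 25.9% of all tested genes. The summed level of the 10 lung lineage markers in the table was 94.5 to 102 CPM in KI696 libraries at 24 h, against 209 to 230.0 CPM in DMSO libraries, and 118 to 157 CPM in KI696 libraries at 48 h, against 173 to 177 CPM in DMSO libraries. Most of this sum came from ABCA3 and FOXA2, at 58.7 and 32.9 CPM of the 94.5 in KI696 24 h A. Of 8 tested lung lineage markers, 8 (100%) fell at 24 h, beside 30.3% of all tested genes, with a median log2 change of -3.94. At 48 h 1 (12.5%), ABCA3, fell, beside 25.9%, and the median log2 change was 0.41. Of 5 tested leukocyte markers, 2 (40%) fell at each time, beside 30.3% of all tested genes at 24 h and 25.9% at 48 h. SFTPB, which encodes a surfactant protein of the alveolus, was listed at 0 in 4 of the 8 libraries and did not exceed 0.549 CPM. In both 48 h groups, library A stood above library B in the summed levels of the epithelial and lung lineage markers. This did not hold for each marker, since CLDN1, ABCA3 and FOXA2 were higher in B of both groups. The results below are also given without the 2 A libraries where that matters.

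**Figure D1:**
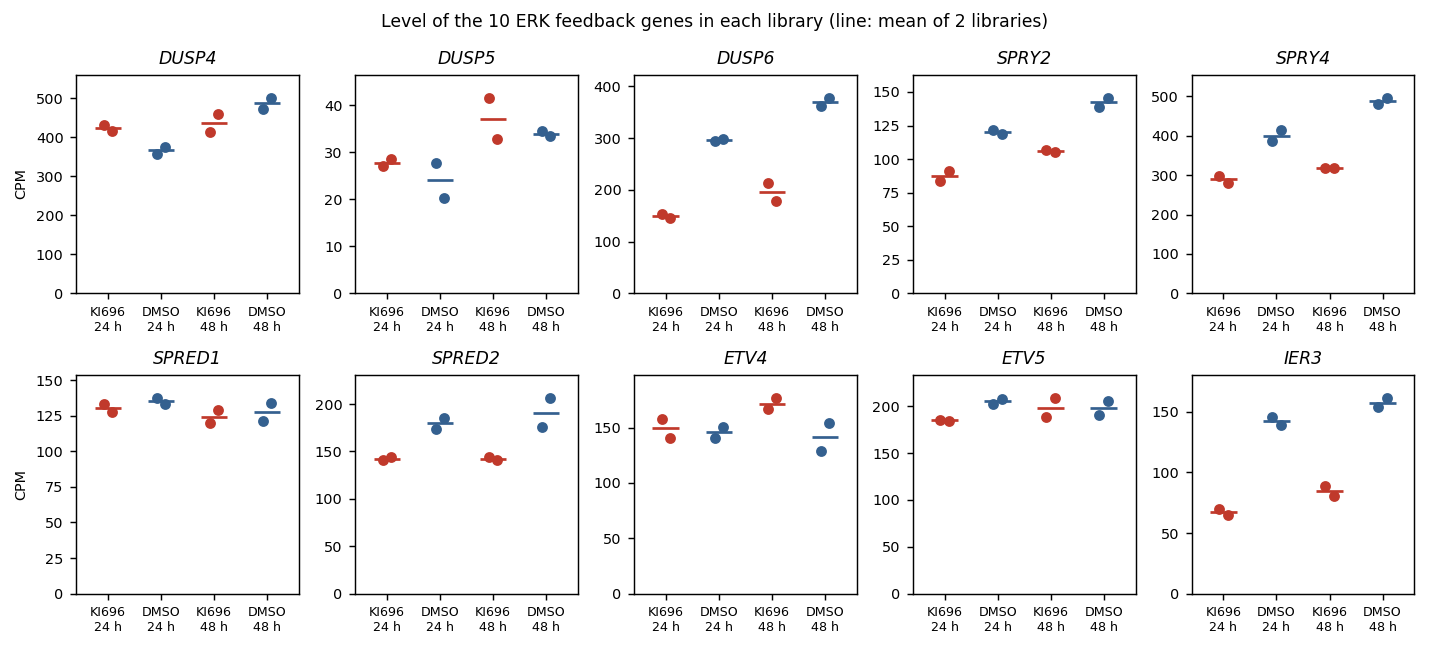
Level of each of the 10 ERK feedback genes in CPM (vertical axis, from 0) in the 4 groups, with KI696 in red and DMSO in blue; points are single libraries and lines are means of 2. DUSP6, IER3, SPRY4, SPRY2 and SPRED2 lie lower in both KI696 libraries than in both DMSO libraries at each time.

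Among the phosphatases, DUSP6 acts in the cytoplasm and is specific for ERK. It lies at chr12:89347232-89353271, minus strand. DUSP6 had 153 and 145 CPM in KI696 libraries at 24 h, against 294 and 298 CPM in DMSO libraries, and 213 and 179 CPM in KI696 libraries at 48 h, against 361 and 378 CPM in DMSO libraries. Every KI696 library was below every DMSO library, also across times. The log2 change was -0.99 (SE 0.07) at 24 h, with adjusted p = 5.8e-07 by limma, and -0.92 (SE 0.07) at 48 h, with adjusted p = 5.9e-07. Of all tested genes, 11.6% changed by as low a value at 24 h and 9.18% at 48 h. The antisense gene AC024909.2 overlaps the span of DUSP6. Because the strand setting of the counting is not given, whether reads of the pair were told apart is not known.

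DUSP4, a nuclear phosphatase that acts on ERK and on the stress kinases and lies on chromosome 8, did not follow DUSP6. DUSP4 had 432 and 415 CPM in KI696 libraries at 24 h, against 357 and 375 CPM in DMSO libraries, and 413 and 460.0 CPM in KI696 libraries at 48 h, against 473 and 500.2 CPM in DMSO libraries. The groups did not overlap at either time, with KI696 above DMSO at 24 h and below it at 48 h. Its log2 change was 0.21 (SE 0.06, adjusted p = 0.014 by limma) at 24 h and -0.16 (SE 0.06, adjusted p = 0.053) at 48 h. The difference between these changes, 48 h minus 24 h, was -0.37 (SE 0.09, adjusted p = 0.071). The 24 h call was lost in 4 of 21 alternatives, among them those that left out KI696 24 h A (0.18, adjusted p = 0.10) or DMSO 24 h A (0.17, adjusted p = 0.12). With the mean of the lung lineage markers as a covariate the 24 h change was 0.05 (adjusted p = 0.72). The 48 h change, which missed the threshold, was called lower in 5 of 21 alternatives. They were quantile scaling (-0.27, adjusted p = 7.3e-04 by limma), the stricter filter (adjusted p = 0.046), the lung lineage covariate (adjusted p = 0.035), leaving out KI696 48 h B (-0.23, adjusted p = 0.015) and leaving out DMSO 48 h A (-0.20, adjusted p = 0.037). Leaving out each library in turn gave -0.23 to -0.08 at 48 h.

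The ratio of the phosphatases within a library differed between the groups. DUSP6 had 0.355 and 0.350 reads per DUSP4 read in KI696 libraries at 24 h, against 0.825 and 0.793 in DMSO libraries. At 48 h the ratio was 0.515 and 0.389 in KI696 libraries, against 0.765 and 0.755 in DMSO libraries. A ratio within a library does not depend on how libraries are scaled, and it shows unequal change of the pair.

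DUSP5, the nuclear phosphatase specific for ERK, lies at chr10:110497838-110511544, plus strand, and had the lowest level of the 10 genes. DUSP5 had 27.1 and 28.5 CPM in KI696 libraries at 24 h, against 27.8 and 20.3 CPM in DMSO libraries, and 41.5 and 32.7 CPM in KI696 libraries at 48 h, against 34.4 and 33.4 CPM in DMSO libraries. The groups overlapped at both times. Its log2 change was 0.22 (95% confidence interval -0.09 to 0.53, adjusted p = 0.22 by limma) at 24 h and 0.12 (-0.19 to 0.43, adjusted p = 0.53) at 48 h, intervals that leave room for a change in either direction. The 24 h value hung on single DMSO libraries. It was 0.44 (adjusted p = 0.038 by limma) without DMSO 24 h A, the one alternative of 21 that called it, and 0.00036 (adjusted p = 0.999) without DMSO 24 h B.

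Sprouty proteins are membrane-linked inhibitors of receptor signalling to RAS and RAF. SPRY4 lies at chr5:142310427-142326455, minus strand. SPRY4 had 298 and 281 CPM in KI696 libraries at 24 h, against 386 and 415 CPM in DMSO libraries, and 318 and 319 CPM in KI696 libraries at 48 h, against 479.7 and 496 CPM in DMSO libraries. KI696 libraries were the lower ones at both times, without overlap. KI696 over DMSO, the log2 change was -0.47 (SE 0.06, adjusted p = 2.6e-05 by limma) at 24 h and -0.61 (SE 0.06, adjusted p = 2.0e-06) at 48 h. SPRY4 is overlapped by the antisense gene SPRY4-AS1, with the same limit as for DUSP6.

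SPRY2, at chr13:80335976-80340951, minus strand, carries the promoter with the ETS cores shown above. SPRY2 had 84.0 and 91.2 CPM in KI696 libraries at 24 h, against 122 and 118 CPM in DMSO libraries, and 107 and 105 CPM in KI696 libraries at 48 h, against 139 and 146 CPM in DMSO libraries. All 4 KI696 libraries were below all 4 DMSO libraries. On the log2 scale the change was -0.45 (SE 0.07, adjusted p = 1.1e-04 by limma) at 24 h and -0.42 (SE 0.07, adjusted p = 1.7e-04) at 48 h.

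SPRED proteins are relatives of Sprouty that recruit the RAS GTPase-activating protein neurofibromin to the membrane. SPRED2, at chr2:65310851-65432637, minus strand, had 140.5 and 144 CPM in KI696 libraries at 24 h, against 174 and 185 CPM in DMSO libraries, and 144 and 141 CPM in KI696 libraries at 48 h, against 176 and 206 CPM in DMSO libraries. The KI696 libraries agreed closely at both times and were below the DMSO libraries. In limma's fit the log2 change was -0.33 (SE 0.07, adjusted p = 0.0025 by limma) at 24 h and -0.42 (SE 0.07, adjusted p = 4.5e-04) at 48 h. AC012370.1, a sense intronic gene on the same strand, overlaps the span of SPRED2.

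SPRED1, at chr15:38252326-38357249, plus strand, passed the test at neither time. SPRED1 had 133 and 128 CPM in KI696 libraries at 24 h, against 137 and 133 CPM in DMSO libraries, and 119.6 and 129 CPM in KI696 libraries at 48 h, against 121 and 134 CPM in DMSO libraries. The KI696 libraries lay just below the DMSO libraries at 24 h and overlapped with them at 48 h. The log2 change was -0.05 (95% confidence interval -0.20 to 0.10, adjusted p = 0.56 by limma) at 24 h and -0.04 (-0.19 to 0.11, adjusted p = 0.67) at 48 h, and its sign was positive at both times under TMM scaling, median-ratio scaling and voom. SPRED2 had 1.06 and 1.13 reads per SPRED1 read in KI696 libraries at 24 h, against 1.26 and 1.39 in DMSO libraries, and 1.21 and 1.09 in KI696 libraries at 48 h, against 1.45 and 1.54 in DMSO libraries. The KI696 libraries had the lower ratio at both times, without overlap.

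ETV4 and ETV5 belong to the PEA3 branch of ETS transcription factors, which the ERK pathway induces through relief of the repressor Capicua. ETV4, at chr17:43527844-43579620, minus strand, had 158 and 141 CPM in KI696 libraries at 24 h, against 140.4 and 151 CPM in DMSO libraries, and 167 and 176 CPM in KI696 libraries at 48 h, against 129 and 155 CPM in DMSO libraries. The groups overlapped at 24 h, and at 48 h both KI696 libraries were above both DMSO libraries. Its log2 change was 0.04 (SE 0.09, adjusted p = 0.76 by limma) at 24 h and 0.28 (SE 0.09, adjusted p = 0.016) at 48 h. The 48 h call rested on DMSO 48 h A and KI696 48 h B, since the change was 0.15 (adjusted p = 0.17) without the first and 0.24 (adjusted p = 0.081) without the second. Without both A libraries of 48 h it was 0.19 (adjusted p = 0.072).

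ETV5, at chr3:186046308-186110318, minus strand, had 185 and 185 CPM in KI696 libraries at 24 h, against 203 and 208 CPM in DMSO libraries, and 188 and 208 CPM in KI696 libraries at 48 h, against 190.4 and 205 CPM in DMSO libraries. At 24 h the KI696 libraries were below the DMSO libraries, and at 48 h the groups overlapped. KI696 over DMSO, the log2 change was -0.15 (95% confidence interval -0.29 to -0.01, adjusted p = 0.070 by limma) at 24 h and 0.00 (-0.14 to 0.14, adjusted p = 0.96) at 48 h. The 24 h change was called lower in 6 of 21 alternatives and ranged over -0.31 to -0.04 across them. ETV4 overlaps DHX8 and ETV5 overlaps DGKG and ETV5-AS1, so some reads may have been assigned between these neighbours.

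IER3 encodes a small early response protein that is phosphorylated by ERK and prolongs ERK activity. It lies at chr6:30743199-30744554, minus strand. IER3 had 69.6 and 65.1 CPM in KI696 libraries at 24 h, against 146 and 139 CPM in DMSO libraries, and 89.0 and 80.8 CPM in KI696 libraries at 48 h, against 154 and 161 CPM in DMSO libraries. KI696 libraries were lower than DMSO libraries throughout, with no overlap across times. On the log2 scale the change was -1.08 (SE 0.07, adjusted p = 2.0e-07 by limma) at 24 h and -0.89 (SE 0.07, adjusted p = 5.9e-07) at 48 h, the lowest value among the 10 genes at 24 h and the next to DUSP6 at 48 h. The antisense gene IER3-AS1 overlaps the span of IER3, and whether reads of this pair were told apart is not known either. IER3 had 0.376 and 0.353 reads per ETV5 read in KI696 libraries at 24 h, against 0.718 and 0.667 in DMSO libraries, and 0.472 and 0.388 in KI696 libraries at 48 h, against 0.806 and 0.785 in DMSO libraries.

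**Figure D2:**
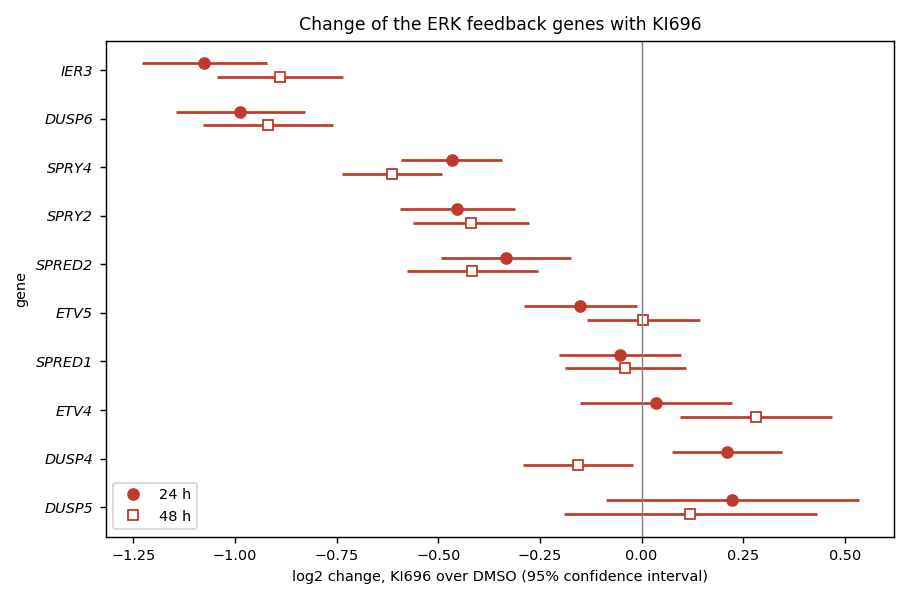
Log2 change of each gene, KI696 over DMSO (horizontal axis), at 24 h (filled circles) and 48 h (open squares), with 95% confidence intervals from limma. The intervals of IER3, DUSP6, SPRY4, SPRY2 and SPRED2 lie below 0 at both times, whereas DUSP4 is at 0.21 at 24 h and -0.16 at 48 h.

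The falls of DUSP6, IER3, SPRY2, SPRY4 and SPRED2 kept their direction and their call in 21 of 21 alternatives at each time. These included the lung lineage mean as a covariate and, for the 48 h changes, the fit without both A libraries of 48 h. Not all of them could move a log2 change. Leaving out libraries of the other time, the filters, no variance trend and a fit to the contrast's libraries alone alter only its p-value. Across the 21 alternatives the log2 change of DUSP6 ranged over -1.04 to -0.81 at 24 h and -1.07 to -0.79 at 48 h. That of IER3 ranged over -1.12 to -0.97 at 24 h and -0.99 to -0.82 at 48 h. The largest adjusted p among the 5 genes was 0.037, for SPRED2 at 24 h.

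Counting libraries without a test, KI696 and DMSO did not overlap for 7 genes that were lower and 1 that was higher at 24 h, against 47.5% and 29.3% of all tested genes. At 48 h they did not overlap for 6 that were lower and 1 that was higher, against 40.3% and 32.0%. No difference between the changes at 48 h and at 24 h passed for any of the 10 genes by limma, against 0.816% of all tested genes. At an unadjusted p under 0.05 there was 1, DUSP4, and voom, limma's weighted fit on the recovered reads, called 1, also DUSP4.

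The feedback genes also shifted with time in culture. In DMSO libraries 5 of the 10 were higher at 48 h than at 24 h by limma, against 5.14% of all tested genes, and 0 were lower, against 4.25%; none was lower at an unadjusted p under 0.05 or by voom. The log2 change, 48 h over 24 h, was 0.41 for DUSP4 (SE 0.06, adjusted p = 0.0014), 0.32 for DUSP6 (SE 0.07, adjusted p = 0.017) and 0.29 for SPRY4 (SE 0.06, adjusted p = 0.0074). It was 0.24 for SPRY2 (SE 0.07, adjusted p = 0.035) and 0.51 for DUSP5 (SE 0.14, adjusted p = 0.043). The call of DUSP5 was lost in 8 of 21 alternatives, and its change was 0.29 (adjusted p = 0.34 by limma) without DMSO 24 h B and 0.73 (adjusted p = 0.031) without DMSO 24 h A. The count of 5 fell to 0 without a variance trend, where 84 of all tested genes were higher, against 693 in the main fit. It fell to 3 with the lung lineage covariate, where 484 of all tested genes were higher. Leaving out each library in turn gave a median log2 change of the 10 genes of 0.16 to 0.24.

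In KI696 libraries 3 of the 10 were higher at 48 h than at 24 h by limma, against 8.21% of all tested genes, and 0 were lower, against 3.52%; none was lower at an unadjusted p under 0.05 or by voom. These were DUSP6 at 0.39 (SE 0.07, adjusted p = 0.0057), IER3 at 0.33 (SE 0.07, adjusted p = 0.011) and SPRY2 at 0.28 (SE 0.07, adjusted p = 0.017). The count was 0 without a variance trend, where 84 of all tested genes were higher, against 1106 in the main fit. Leaving out each library in turn gave a median log2 change of the 10 genes of 0.11 to 0.20. The time comparisons share libraries with the comparisons of KI696 with DMSO.

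**Figure D3:**
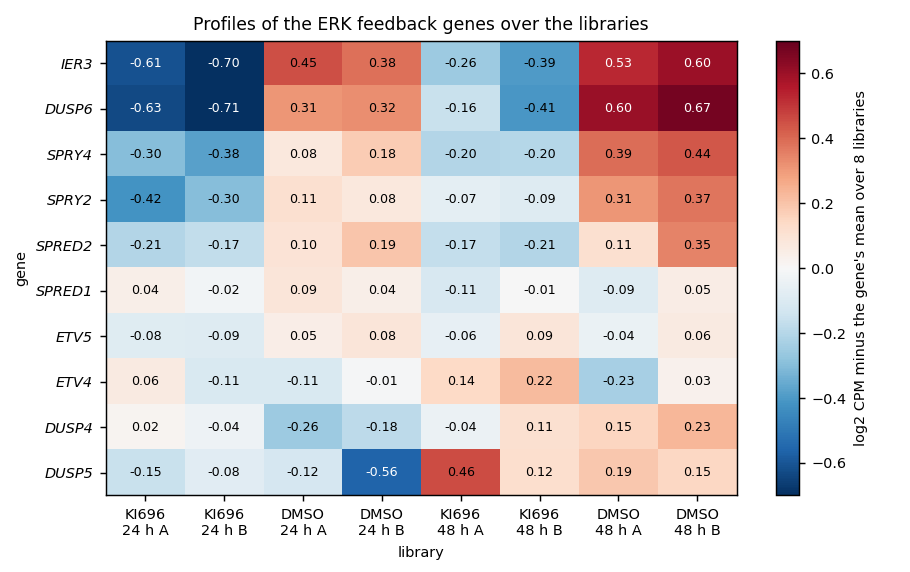
Heat map of log2 CPM minus the mean of each gene over the 8 libraries (colour and printed value), with genes in rows and libraries in columns. DUSP6 is at -0.71 in KI696 24 h B and at 0.67 in DMSO 48 h B, while SPRED1 stays within -0.11 to 0.09.

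Over the 8 libraries, 3 pairs of the 10 genes had the most similar profiles. The root mean square difference between centred log2 profiles was 0.068 for SPRED1 and ETV5, 0.075 for DUSP6 and IER3, and 0.097 for SPRY2 and SPRY4. SPRED2 was about as near to SPRY2 (0.13) as to SPRY4 (0.132), and DUSP4 and DUSP5 had no gene among the 10 nearer than 0.174 and 0.238. These are descriptions over libraries that share groups, so any pair of genes changed by a like amount comes out close. Among all 13473 tested genes, the profiles nearest to DUSP6 were those of SORL1, a sorting receptor (0.043), GSTK1, a glutathione transferase (0.054), and WIPI1, an autophagy protein (0.059). Their log2 changes with KI696 were -0.99, -0.98 and -1.06 at 24 h and -0.92, -0.91 and -1.01 at 48 h.

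Levels per kilobase of exon allow a rough comparison between genes. The length used was the union of all annotated exons, which exceeds that of the longest coding transcript unequally. It is 7257 bases against 5537 for DUSP4, 6565 against 4938 for SPRY4 and 3607 against 2429 for ETV4. For IER3 it is 1356 against 1350 bases, so the order of genes below depends on the length chosen. In DMSO libraries IER3 was the highest of the 10, at 105 ± 3.49 CPM per kb at 24 h and 116 ± 3.93 CPM per kb at 48 h (SD, n = 2 each). In KI696 libraries at 24 h, DUSP4 stood first at 58.3 ± 1.60 CPM per kb, above IER3 at 49.7 ± 2.30, SPRY4 at 44.1 ± 1.83, ETV4 at 41.4 ± 3.46 and DUSP6 at 32.2 ± 1.23 CPM per kb (SD, n = 2 each). SPRY4 and ETV4 overlapped in this order, as did ETV5 at 31.9 ± 0.05 and DUSP6 (SD, n = 2 each). In KI696 libraries at 48 h, IER3 at 62.6 ± 4.30 and DUSP4 at 60.2 ± 4.54 CPM per kb overlapped. DUSP5 had the lowest mean in all 4 groups, at 9.20 to 14.2 CPM per kb, and SPRED1 came next at 15.0 to 16.4 CPM per kb. In KI696 libraries at 48 h they overlapped, with DUSP5 at 12.5 to 15.9 and SPRED1 at 14.5 to 15.6 CPM per kb.

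The genes also differ in AU-rich motifs, which can mark short-lived mRNAs. The pentamer ATTTA occurred 6 times in the 3′ UTR of IER3, or 6.64 per kb, and 24 times in that of SPRED1, or 4.3 per kb, in GENCODE transcripts. It occurred 0 times in those of DUSP5 and ETV4 and at 0.495 per kb in that of DUSP6, beside a median of 1.74 per kb over 11683 tested genes. IER3 lay above that median and DUSP6 below it. At least 1 copy of ATTTA was in 74.9% of these tested genes, and the stability of the mRNAs was not measured.

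Other genes of the pathway were followed by lists that were chosen with earlier results of these data known. Of 32 other ERK output genes, 17 fell and 2 rose at 24 h, and 22 fell and 4 rose at 48 h, with a median log2 change of -0.35 at 24 h and -0.48 at 48 h. The shares that fell were 53.1% at 24 h and 68.8% at 48 h, beside 30.3% and 25.9% of all tested genes, and the shares that rose were 6.25% and 12.5%, beside 17.7% and 21.9%. At 24 h the count of those that fell was 11 with the lung lineage covariate, where 2115 of all tested genes fell, against 4077 in the main fit. Under TMM scaling 13 fell and 4 rose at 24 h, where 3136 of all tested genes fell and 3399 rose. EPHA4, an ephrin receptor, had 16.7 and 15.5 CPM in KI696 libraries at 24 h, against 40.5 and 42.9 CPM in DMSO libraries, and 20.2 and 17.9 CPM in KI696 libraries at 48 h, against 50.8 and 61.2 CPM in DMSO libraries. The log2 change of PHLDA1 was -0.77 at 24 h and -0.73 at 48 h, and that of EREG, which encodes the EGF receptor ligand epiregulin, was -1.28 and -1.38. JUNB, a subunit of AP-1, fell by 1.01 on the log2 scale at 24 h and PLAUR, the urokinase receptor, by 0.87 at 48 h. FOSL1, another AP-1 subunit, went the other way and was chosen after its values were seen: it had 136 and 149 CPM in KI696 libraries at 24 h, against 108 and 88.6 CPM in DMSO libraries, and 108 and 110.5 CPM in KI696 libraries at 48 h, against 66.7 and 72.5 CPM in DMSO libraries.

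Of 11 other dual-specificity phosphatases and paralogs of the feedback genes, 3 rose and 5 fell at 24 h, and 4 rose and 4 fell at 48 h. That is 27.3% higher and 45.5% lower at 24 h, beside 17.7% and 30.3% of all tested genes, and 36.4% each way at 48 h, beside 21.9% and 25.9%. DUSP7, the closest relative of DUSP6 among ERK phosphatases of the cytoplasm, had 50.7 and 46.0 CPM in KI696 libraries at 24 h, against 24.2 and 27.8 CPM in DMSO libraries, and 43.3 and 47.0 CPM in KI696 libraries at 48 h, against 22.8 and 24.5 CPM in DMSO libraries. DUSP7 thus rose (log2 change 0.89 at 24 h and 0.93 at 48 h, SE 0.10 each) where DUSP6 fell. DUSP9, of the same subgroup, rose by 0.39 on the log2 scale at 24 h and 0.86 at 48 h. DUSP2 rose by 0.74 on the log2 scale at 24 h. DUSP10 was low throughout, with 1.35 and 0.998 CPM in KI696 libraries at 24 h, against 6.76 and 4.84 CPM in DMSO libraries, a log2 change of -2.09. ETV1, the PEA3 relative of ETV4 and ETV5, fell by 0.53 on the log2 scale at 24 h and 0.59 at 48 h, and SPRED3 fell by 1.22 at 48 h.

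Of 12 ETS factors and Capicua genes, 4 fell and 2 rose at 24 h, and 7 fell and 2 rose at 48 h. The 24 h shares, 33.3% lower and 16.7% higher, were near the 30.3% and 17.7% of all tested genes, and at 48 h they were 58.3% and 16.7%, beside 25.9% and 21.9%. ETS1 and ETS2, a pair of factors phosphorylated by ERK, changed in opposite directions. ETS1 had 32.7 and 33.8 CPM in KI696 libraries at 24 h, against 70.5 and 63.4 CPM in DMSO libraries, a level 0.499 times that of DMSO at 24 h, and had a log2 change of -0.66 at 48 h. ETS2 had 30.0 and 34.1 CPM in KI696 libraries at 24 h, against 15.4 and 16.6 CPM in DMSO libraries, with a log2 change of 0.99 at 24 h and 1.35 at 48 h. ATXN1, a partner of Capicua, fell by 0.97 at 24 h and 0.81 at 48 h, and ETV6 fell by 0.64 at 24 h and 0.55 at 48 h, all on the log2 scale.

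In the cascade itself, 11 of 24 genes fell and 2 rose at 24 h, and 11 fell and 3 rose at 48 h. The share that fell was 45.8% at both times, beside 30.3% of all tested genes at 24 h and 25.9% at 48 h. The share that rose was 8.33% at 24 h and 12.5% at 48 h, beside 17.7% and 21.9%. The adaptor GAB1 had 11.6 and 9.12 CPM in KI696 libraries at 24 h, against 24.2 and 25.1 CPM in DMSO libraries. Its log2 change was -1.24 (SE 0.14, adjusted p = 1.9e-05 by limma) at 24 h and -1.22 (SE 0.14, adjusted p = 1.6e-05) at 48 h. SOS2, a RAS exchange factor, fell by 0.74 on the log2 scale at 24 h and RASA1, a RAS GTPase-activating protein, by 0.63. PTPN11, which encodes the phosphatase SHP2 that couples receptors to RAS, rose by 0.40 at 24 h and 0.45 at 48 h.

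Of 19 tested growth factor receptors and ligands, 12 fell and 2 rose at 24 h, and 7 fell and 4 rose at 48 h. These were 63.2% lower and 10.5% higher at 24 h, beside 30.3% and 17.7% of all tested genes, and 36.8% and 21.1% at 48 h, beside 25.9% and 21.9%. RET had 86.1 and 78.3 CPM in KI696 libraries at 24 h, against 164 and 180.3 CPM in DMSO libraries, and 97.7 and 85.1 CPM in KI696 libraries at 48 h, against 221 and 224 CPM in DMSO libraries. PDGFRB, the PDGF receptor beta, changed by -1.70 at 24 h and -1.34 at 48 h on the log2 scale, and PDGFRA by -0.86 at 48 h. ERBB2 and MET, receptors that epithelial cells carry, fell by 1.31 and 0.75 at 24 h and had log2 changes of -0.28 (adjusted p = 0.15 by limma) and 0.17 (adjusted p = 0.16) at 48 h. FGFR4 rose by 1.97 at 48 h on the log2 scale. PDGFRB was also on the list of fibroblast and endothelial markers, of which 6 of 7 tested genes fell at 24 h and 4 at 48 h. That is 85.7% and 57.1%, beside 30.3% and 25.9% of all tested genes. The summed level of that list was 75.3 to 76.3 CPM in KI696 libraries at 24 h, against 205 to 216 CPM in DMSO libraries, and 85.9 to 114 CPM in KI696 libraries at 48 h, against 232 to 253 CPM in DMSO libraries. The part of these marker changes in the results on receptors was not tested.

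**Figure D4:**
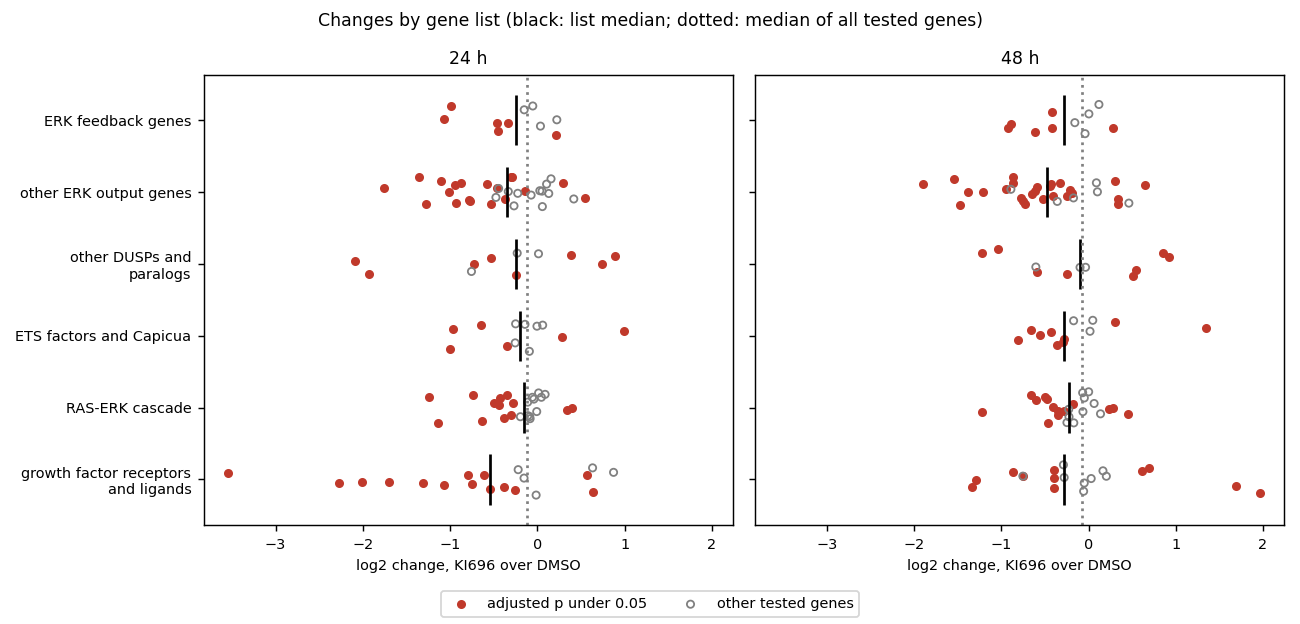
Log2 change, KI696 over DMSO (horizontal axis), of each tested gene in 6 lists (rows) at 24 h and at 48 h; filled points have an adjusted p under 0.05, black lines are list medians and the dotted line is the median of all tested genes. The ERK feedback genes have a median of -0.24 at 24 h and -0.29 at 48 h, and other ERK output genes one of -0.35 and -0.48.

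The scaling of libraries moved the whole distribution. Under TMM scaling the median log2 change of all tested genes was -0.02 at both times, a shift of over 0.1 at 24 h, and 52.0% of called genes were higher at 24 h, against 36.9% with the deposited scaling. The median of the 10 feedback genes was then -0.13 at 24 h and -0.23 at 48 h. Their counts of 5 lower and 1 higher held at both times under TMM and median-ratio scaling.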

How the data were processed

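Libraries were made from poly(A) RNA and read as single reads, per the labels' protocols. Per the submitters' processing notes, hg38, edgeR (version not named) and R 4.0.3 were used. For the aligner, annotation, strand setting and gene filter, the choice is not given in the sources used here. Values were deposited as log2 CPM scaled by the authors, with a small added count. This was read from the values, since on the antilog scale 100% of values fell within 1e-06 of a whole number of reads. CPM in the text are these recovered reads at the deposited scaling, without the added count. Of 14556 rows, 21 with a date for a symbol were left out.

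In R 4.3.3, limma 3.58.1 fitted a mean per group to the 8 libraries' deposited log2 values, allowing the variance to follow expression. Moderated tests were two-sided, and p-values were adjusted by Benjamini and Hochberg's method over 13473 genes, with a threshold of 0.05. The tests were checked on simulated data. Column headers carry no replicate number. Reads recovered from log2 values were not given to the planned count tools; voom and a fit without both A libraries of 48 h were added after seeing the data. Other alternatives were pseudocounts, filters, scalings, no variance trend, only the libraries of a contrast, a lung lineage covariate and leaving out each library. Confidence intervals come from the spread between libraries. Named genes are the 10 members, up to 4 genes per list with the smallest p and the 3 profiles nearest to DUSP6; some are left out of the text. The members, lists and alternatives were chosen with earlier results of these data known. Coordinates and exon lengths come from GENCODE on GRCh38, promoters from RefSeq.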

Additional observations from a re-analysis of the deposited data

Results flagged for a closer look

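DUSP4 stood out because its libraries separated in opposite directions at the 2 times, with KI696 above DMSO at 24 h and below it at 48 h. The KI696 effect at 48 h minus that at 24 h was -0.37 on the log2 scale (SE 0.09, adjusted p = 0.071 by limma), which missed the threshold. Over 20 alternatives the difference ranged over -0.44 to -0.19, with adjusted p from 0.010 to 0.53, and 6 of them called it. It was called under TMM scaling (adjusted p = 0.044), under quantile scaling (0.021), by voom (0.047), without both A libraries of 48 h (0.012), without KI696 48 h B (0.010) and without DMSO 48 h A (0.027). With the lung lineage covariate the difference was -0.19 (adjusted p = 0.53 by limma). In DMSO libraries, which enter both effects, DUSP4 rose by 0.41 on the log2 scale between 24 h and 48 h.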

How the results depend on the processing

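Over 21 alternatives, 931 of 1040 results for single genes kept their direction and their side of the threshold. Of the rest, 38 were no longer called, 23 became called and 48 changed sign, all with neither value called. Some alternatives could alter only the p-value of a given result and not its log2 change. With 2 libraries per group, a lone library left by leaving out the other was assumed to vary like those of other groups. The planned count tools were not run on log2 values. No paired analysis was possible because the column headers carry no replicate numbers. Fits without a trend, with covariates or with other scalings are named only where they moved a result, and the cause was not tested.

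Without a variance trend, the count of feedback genes called higher was 0 at 24 h, 0 at 48 h, 0 for DMSO at 48 h against 24 h and 0 for KI696 at 48 h against 24 h. Of all tested genes, 2007, 2593, 84 and 84 were then called higher, against 2385, 2944, 693 and 1106 in the main fit. With the lung lineage covariate it was 0 at 24 h and 3 for DMSO over time, and without both A libraries of 48 h it was 0 at 48 h. The count with a lower effect at 48 h than at 24 h was 1 under TMM scaling, quantile scaling, voom and without both A libraries of 48 h, each time DUSP4. Leaving out each library in turn gave 0 to 1 called higher at 24 h, 0 to 1 at 48 h, 2 to 5 for DMSO over time, 0 to 4 for KI696 over time and 0 to 1 for the lower difference of effects.

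Signs of uncalled log2 changes turned as follows. For SPRED1 the change was 0.055 at 24 h and 0.020 at 48 h under TMM scaling, 0.045 and 0.011 under median-ratio scaling, and 0.056 and 0.017 by voom. Its difference of effects was -0.035 under TMM scaling, -0.034 under median-ratio scaling, -0.00047 under quantile scaling, -0.039 by voom and -0.0062 without both A libraries of 48 h. That of SPRY2 was -0.014 under TMM scaling, -0.013 under median-ratio scaling, -0.015 by voom and -0.012 without both A libraries. That of DUSP6 was -0.12 with the lung lineage covariate and -0.088 without both A libraries. SPRED2 in KI696 libraries over time was at -0.033 under TMM scaling, -0.034 under median-ratio scaling and by voom, -0.0097 under quantile scaling and -0.018 without both A libraries. ETV5 at 48 h was at -0.028 under quantile scaling and ETV4 at 24 h at -0.14 with the covariate. Without both A libraries, DUSP5 at 48 h was at -0.029 and ETV4 in DMSO libraries over time at 0.087.

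Leaving out each library in turn gave -0.050 to 0.12 for ETV4 at 24 h, -0.051 to 0.29 for DUSP5 at 48 h, -0.11 to 0.033 for SPRED1 at 48 h and -0.069 to 0.077 for ETV5 at 48 h. For the difference of effects it gave -0.026 to 0.093 for SPRY2, -0.059 to 0.086 for SPRED1, -0.33 to 0.12 for DUSP5, -0.057 to 0.19 for DUSP6 and -0.20 to 0.032 for SPRED2. Over time in DMSO libraries it gave -0.17 to 0.087 for ETV4 and -0.030 to 0.20 for SPRED2. In KI696 libraries it gave -0.018 to 0.021 for SPRED2 and -0.034 to 0.12 for DUSP4.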
